A study of Mus musculus with 12 samples.

Results

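Cxcl1, Cxcl2 and Cxcl3, the 3 mouse CXC chemokine genes best known for drawing neutrophils into inflamed tissue, were followed through airway macrophages (AMs) from wild-type (WT) and Scnn1b-Tg mice, at rest and after lipopolysaccharide (LPS). The members were chosen by name and by their Ensembl identifiers (ENSMUSG00000029380, ENSMUSG00000058427 and ENSMUSG00000029379), which gave 3 of the 20551 genes in the deposited table. All 3 passed the filter on low counts. All animals were C57BL/6 mice, 6 weeks old per the study's methods, and the Scnn1b-Tg mice carry the Scnn1b transgene under the club cell secretory protein promoter, which is active in airway epithelium rather than in macrophages, with WT littermates as controls. Cells were given 100 ng/ml LPS from P. aeruginosa for 12 h, or medium alone. The 2 genotypes and 2 treatments gave 4 groups of 3 libraries. These came from 6 pools of cells, WT 16, 17 and 18 and Scnn1b-Tg 17, 18 and 19, and each pool gave 1 medium and 1 LPS library. Per the labels a pool combined the lavage of 3 to 4 animals. The study's methods hold 2 accounts. Lavages were pooled in the same numbers for ex vivo treatment, whereas for sequencing AMs were sorted from digested lung by CD45, Siglec-F and CD11c. The accounts were not reconciled. Pools WT 16, WT 17 and Scnn1b-Tg 17 formed batch 1 of the labels and the other 3 pools batch 2.

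CXC chemokines are small secreted proteins. CXCL1, CXCL2 and CXCL3 belong to those with an ELR motif before the first cysteines, bind the G protein-coupled receptor CXCR2 on neutrophils and guide these cells along a gradient. In macrophages their genes are classical targets of the LPS receptor TLR4, which signals through adaptor proteins to the transcription factor NF-kB, and their mRNAs are short-lived, with AU-rich elements that recruit decay factors. In the lung, resident macrophages are among the cells that release them when bacterial products arrive.

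The 3 genes lie on the plus strand of chromosome 5 (mm10, GENCODE annotation). Cxcl3 spans 90786103 to 90789600, Cxcl1 spans 90891241 to 90893115 and Cxcl2 spans 90903871 to 90905938. Cxcl1 and Cxcl2 are 10755 bases apart, and 101640 bases separate Cxcl3 from Cxcl1. They share a cluster of 147 kb with 4 other CXC chemokine genes, Cxcl5, Ppbp, Pf4 and Cxcl15. The coding sequences of Cxcl2 and Cxcl3 were 89.7% identical, and those of Cxcl1 were 78.8% identical to Cxcl2 and 75.7% to Cxcl3. Of stretches of 125 bases, the length of a read, the members' protein-coding transcripts shared 0 with each other. Of stretches of 25 bases, 4.95% in Cxcl2 and 9.27% in Cxcl3 also occurred in another member, and 0 in Cxcl1, so how the aligner placed reads in those stretches could shift counts between Cxcl2 and Cxcl3 only in a small part of each transcript. No other annotated gene's exons overlap any of the 3.

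The promoters are shown because all 3 carry the same NF-kB type sequence near the start. Each line gives bases -130 to -31 relative to the RefSeq transcription start (GRCm38.p6, plus strand, chromosome 5), 5′ to 3′, with the match to the kappa-B consensus in capitals. The stretches are chr5:90891115-90891214, chr5:90903769-90903868 and chr5:90785971-90786070.
Cxcl1: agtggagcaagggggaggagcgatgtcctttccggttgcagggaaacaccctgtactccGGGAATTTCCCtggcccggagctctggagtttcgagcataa
Cxcl2: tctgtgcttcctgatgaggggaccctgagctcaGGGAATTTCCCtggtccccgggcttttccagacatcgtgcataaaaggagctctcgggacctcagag
Cxcl3: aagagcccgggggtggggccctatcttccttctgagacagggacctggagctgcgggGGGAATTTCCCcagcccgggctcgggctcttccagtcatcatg
The capitals mark the 11 bases GGGAATTTCCC, which match the consensus on both strands with overlapping matches. They start 71 bases before the start of Cxcl1, 97 before that of Cxcl2 and 73 before that of Cxcl3. In windows of 300 bases (250 before the start to 50 after it), a kappa-B match on either strand was found in 8.46% of 32851 RefSeq promoter windows. The exact 11 bases on the gene's own strand were in 12 windows, 3 of them those of Cxcl1, Cxcl2 and Cxcl3. The whole windows were 63.7% identical between Cxcl1 and Cxcl2, 60.4% between Cxcl1 and Cxcl3 and 72.8% between Cxcl2 and Cxcl3. Outside the kappa-B stretch the members differed in the letters searched: TATAAA (13.6% of all windows) was found only in Cxcl3 among the 3, and GGGCGG (35.7%) only in Cxcl2. CCAAT (37.4% of all windows), TGANTCA (7.81%), TTGCNCAA (2.94%) and GAAANNGAA (8.56%) were in none of the 3 windows. Of the neighbours in the table of windows, Ppbp, Pf4 and Cxcl15 held no kappa-B match. Cxcl5 had no window there and was not searched, so the match is not shown to be limited to the trio within the cluster. A match describes letters and is no measured binding site.

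**Figure D1:**
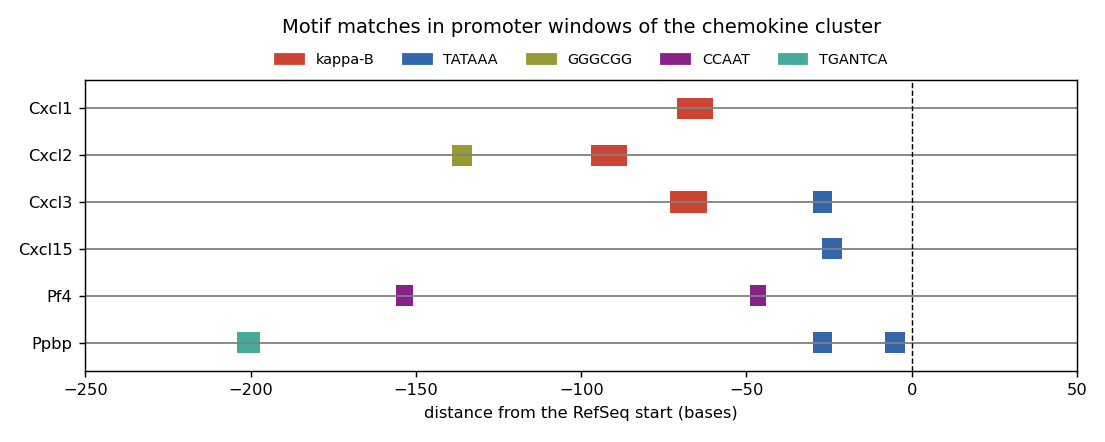
Motif matches in the promoter windows of Cxcl1, Cxcl2, Cxcl3 and 3 neighbours. The x axis is the distance in bases from the RefSeq start, each line is 1 window of 300 bases and each coloured block is a match, on either strand. The red kappa-B blocks stand at -71 (Cxcl1), -97 (Cxcl2) and -73 (Cxcl3) and are missing from Cxcl15, Pf4 and Ppbp. Cxcl5 had no window and is not drawn.

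The 3′ untranslated regions also shared a feature. The pentamer ATTTA, the core of AU-rich elements, occurred 7 times in Cxcl1, 11 times in Cxcl2 and 5 times in Cxcl3, and 21.7% of 20954 annotated genes had at least 5. The longer element TTATTTATT occurred 2, 4 and 1 times, against at least 1 in 7.68% of genes. Of the neighbours, Cxcl5 had 5 pentamers, Cxcl15 had 2, and Ppbp and Pf4 had 1 each, all without the longer element. These regions differ in length, with 592 bases in Cxcl1, 1494 in Cxcl2 and 645 in Cxcl3. The neighbours have 1111 in Cxcl5, 1586 in Cxcl15, 656 in Ppbp and only 123 in Pf4. Neither the counts nor the shares of genes are scaled for length, so the single pentamer of Pf4 does not show a lower density.

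Library totals were 48.2 to 60.9 M deposited counts. That 1 sequenced read was worth about 2.5 of them was inferred from low values. Of values from 1 to 30 counts, 55.3% fell on this step after rounding, against 40% for an even spread. On this basis 8 counts (3 reads) were taken as the floor, 0.131 to 0.166 counts per M counts (CPM) by library. All members were above it in every library, with a lowest value of 62 counts for Cxcl1, 176 for Cxcl2 and 79 for Cxcl3, all in the Scnn1b-Tg 17 medium library. All 12 AM marker genes were above the floor, with summed levels of 14263 to 20479 CPM over the medium libraries and 9282 to 16238 CPM over the LPS libraries. Chil3 made up most of these sums, with means of 9971 and 12604 CPM in WT and Scnn1b-Tg medium and 7954 and 9899 CPM with LPS. Siglecf fell further, from 115 and 118 CPM to 11.1 and 6.47 CPM. Marco and Car4 had higher means with LPS in both genotypes, and the rest of the list lower ones. Of 10 neutrophil markers 6 were in the table. They summed to 9.53 to 15.5 CPM at rest in WT and 12.7 to 13.3 at rest in Scnn1b-Tg AMs. With LPS the sums were 12 to 12.3 and 12.6 to 16.8 CPM. S100a9 and Ngp had at most 5 counts in every library. S100a8 rose with LPS, from group means of 2.86 and 4.53 CPM in WT and Scnn1b-Tg medium to 7.32 and 11.1 CPM. Camp rose from 0 in both to 0.194 and 0.373 CPM. Csf3r fell, from 6.53 and 7.66 to 2.86 and 2.77 CPM, as did Ltf, from 2.45 and 0.668 to 1.76 and 0.145 CPM. The part of these markers in the results was not tested. All 7 epithelial markers were above the floor somewhere, and their sum was 80.4 to 118 CPM in the WT libraries and 35.9 to 73.4 CPM in the Scnn1b-Tg libraries. Of 6 fibroblast and endothelial markers 4 were above the floor somewhere, and Col1a1 and Col3a1 were not. Their sum was 2.87 to 3.32 CPM in WT medium and 6.1 to 8.76 in WT LPS, and 4.6 to 5.61 in Scnn1b-Tg medium and 6.6 to 10.5 in Scnn1b-Tg LPS. Among them Dcn, which encodes the matrix proteoglycan decorin, went from group means of 0.0473 and 0.0571 CPM in WT and Scnn1b-Tg medium to 5.09 and 5.89 CPM with LPS. Pdgfra went the other way, from 2.89 and 4.6 CPM to 1.82 and 2.07 CPM. Pecam1 and Cdh5 had group means of at most 0.225 CPM. The part of these genes in the results was not tested. All 4 monocyte markers were above the floor somewhere, with a sum of 0.937 to 1.51 CPM at rest and 1.23 to 1.98 CPM with LPS in WT AMs, and of 0.894 to 1.16 CPM at rest and 1.37 to 2.49 CPM with LPS in Scnn1b-Tg AMs. Scnn1b itself was at 0 to 0.755 CPM in all groups, so it did not set the genotypes apart in these cells. Bulk RNA cannot tell apart fewer cells of a type and less RNA per cell.

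LPS and medium were first compared within each genotype, to ask how strongly stimulated AMs turn on the trio. Cxcl1, Cxcl2 and Cxcl3 rose 179- to 1457-fold by the fit in both genotypes, from a few CPM at rest to between 490 and 6545 CPM, and all 3 passed the test in WT and in Scnn1b-Tg AMs. Together they went from 0.000553 to 0.00229% of a library's counts in medium to 0.601 to 0.971% in LPS.

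Cxcl1, in WT medium, was at 2.94, 2.34 and 2.29 CPM in pools 16, 17 and 18, and in WT LPS at 699, 491 and 867 CPM. In Scnn1b-Tg medium it was at 1.06, 3.39 and 2.62 CPM in pools 17, 18 and 19, and in Scnn1b-Tg LPS at 490, 1084 and 1122 CPM. The LPS and medium libraries were far apart in each genotype, and the lowest LPS libraries of both genotypes were those of pool 17, in batch 1. The fitted log2 fold change was 8.04 (SE 0.33, edgeR quasi-likelihood adjusted p = 3.29e-08) for the WT pools and 8.58 (SE 0.34, edgeR adjusted p = 1.73e-08) for the Scnn1b-Tg pools, which is 262-fold (95% interval 158 to 436) and 381-fold (227 to 641).

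Cxcl2, in WT medium, was at 12.2, 6.27 and 10.5 CPM in pools 16, 17 and 18, and in WT LPS at 1775, 1334 and 2189 CPM. In Scnn1b-Tg medium it was at 3.01, 7.80 and 7.19 CPM in pools 17, 18 and 19, and in Scnn1b-Tg LPS at 1249, 2168 and 2211 CPM. Medium and LPS libraries did not overlap, and pool 17 was again lowest in each of the 4 groups. The log2 fold change was 7.48 (SE 0.31, edgeR adjusted p = 3.29e-08) for the WT pools and 8.32 (SE 0.32, edgeR adjusted p = 1.57e-08) for the Scnn1b-Tg pools, 179-fold (95% interval 111 to 287) and 319-fold (195 to 523).

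Cxcl3 had the largest fitted fold change of the 3 in both genotypes. In WT medium it was at 6.97, 2.65 and 8.38 CPM in pools 16, 17 and 18, and in WT LPS at 5737, 4526 and 5598 CPM. In Scnn1b-Tg medium it was at 1.35, 4.43 and 7.19 CPM in pools 17, 18 and 19, and in Scnn1b-Tg LPS at 5046, 6545 and 5963 CPM. The resting libraries varied by up to 5.32-fold within a genotype, while the stimulated ones stayed within 1.30-fold of each other. The log2 fold change was 9.84 (SE 0.52, edgeR adjusted p = 1.95e-07) for the WT pools and 10.51 (SE 0.53, edgeR adjusted p = 9.06e-08) for the Scnn1b-Tg pools, 919-fold (95% interval 418 to 2019) and 1457-fold (648 to 3277).

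**Figure D2:**
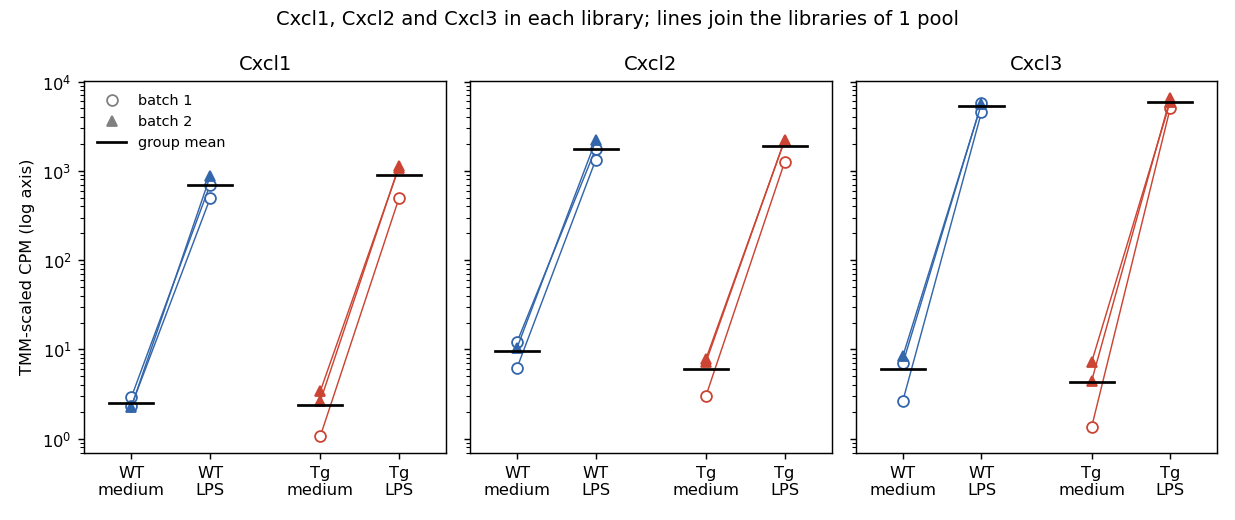
Level of Cxcl1, Cxcl2 and Cxcl3 in every library. The y axis is TMM-scaled CPM on a log axis, each point is 1 library, each line joins the medium and LPS libraries of 1 pool, open circles are batch 1, filled triangles batch 2, blue is WT, red is Scnn1b-Tg and black bars are group means. Every line climbs, Cxcl3 reaches 4526 to 6545 CPM with LPS in all 6 pools, and Cxcl1 reaches 490 to 1122 CPM.

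These calls stand against a background in which 15.5% of the 13729 genes tested were called higher with LPS in WT and 19.3% in Scnn1b-Tg AMs. The LPS and medium libraries did not overlap, with LPS higher, for 18.7% of genes in WT and 22.3% in Scnn1b-Tg AMs, and for all 3 members in both. By size of the fitted rise, Cxcl3 ranked 6 in WT and 5 in Scnn1b-Tg AMs among the 13729 genes, Cxcl1 ranked 24 and 25, and Cxcl2 ranked 33 and 32. The median log2 fold change over all genes was 0.00 for WT and -0.02 for Scnn1b-Tg AMs.

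The rise was seen in each pool taken alone. Between the libraries of 1 pool the CPM of Cxcl1 rose 238-, 210- and 378-fold in WT pools 16, 17 and 18, and 461-, 320- and 429-fold in Scnn1b-Tg pools 17, 18 and 19. For Cxcl2 the same ratios were 145, 213 and 208 in WT and 415, 278 and 307 in Scnn1b-Tg pools. For Cxcl3 they were 824, 1709 and 668 in WT and 3732, 1477 and 829 in Scnn1b-Tg pools. Cxcl3 changed most in 6 of 6 pools. The 3732-fold ratio of Cxcl3 in Scnn1b-Tg pool 17 had the lowest resting value of that gene (79 counts) beneath it.

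The members were then set beside each other per length, since a longer transcript gathers more reads. The result depended on which exons were counted, because each gene has an annotated transcript that keeps an intron. All annotated exons cover 1875 bases in Cxcl1, 2068 in Cxcl2 and 3498 in Cxcl3, and those of protein-coding transcripts 953, 1859 and 1016. Over all annotated exons, the mean levels in WT medium were 4.69 ± 1.49 CPM per kb for Cxcl2, 1.71 ± 0.853 for Cxcl3 and 1.35 ± 0.191 for Cxcl1 (SD, n = 3 each). In Scnn1b-Tg medium they were 2.90 ± 1.26 for Cxcl2, 1.26 ± 0.631 for Cxcl1 and 1.24 ± 0.835 for Cxcl3. Cxcl2 was thus first in resting cells on this scale, and Cxcl1 and Cxcl3 did not differ beyond their spread. Over protein-coding exons the resting levels were 5.90 ± 2.94 for Cxcl3, 5.21 ± 1.66 for Cxcl2 and 2.65 ± 0.377 for Cxcl1 in WT, and 4.26 ± 2.88, 3.23 ± 1.40 and 2.47 ± 1.24 in Scnn1b-Tg medium, where Cxcl3 and Cxcl2 did not differ beyond their spread.

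With LPS the order was Cxcl3, Cxcl2, Cxcl1 in all 6 libraries with either length. In WT LPS the levels were 1511 ± 190, 854 ± 207 and 366 ± 100 CPM per kb of all exons, and in Scnn1b-Tg LPS 1673 ± 216, 907 ± 263 and 479 ± 189 (SD, n = 3 each). Per kb of protein-coding exons Cxcl3 was at 5204 ± 653 and 5759 ± 744, Cxcl2 at 950 ± 230 and 1009 ± 292, and Cxcl1 at 719 ± 197 and 943 ± 372 in WT and Scnn1b-Tg LPS. On that scale Cxcl2 was above Cxcl1 in each library, though their group means lay within the spread between libraries. The values were close in Scnn1b-Tg LPS, at 1166 and 1137 in pool 18 and at 1190 and 1178 in pool 19. Among 13537 genes with an annotated length, Cxcl3 ranked 20 in both LPS groups per kb of all exons, up from 8477 in WT and 9244 in Scnn1b-Tg medium. Among 11803 genes with protein-coding transcripts it ranked 5 in WT and 6 in Scnn1b-Tg LPS.

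The share of each gene in the summed level of the 3 per kb was used to ask whether the mixture itself changed. Cxcl3 made up 21, 15 and 27.5% of the sum in WT medium pools 16, 17 and 18 and 16, 18.5 and 29.7% in Scnn1b-Tg medium pools 17, 18 and 19. With LPS it made up 57.1, 58.8 and 51.3% in WT and 62.5, 53.5 and 50.5% in Scnn1b-Tg pools. Its share was higher with LPS in 6 of 6 pools, by 34.3 percentage points on average (two-sided exact sign-flip permutation test over pools, p = 0.031, the smallest that 6 pools allow, adjusted p = 0.0938 over 6 tests). Cxcl2 went from a mean of 57.8% to 30.2%, lower in 6 of 6 pools (exact p = 0.031, adjusted p = 0.0938). Cxcl1 went from 20.9% to 14.2% (exact p = 0.0625, adjusted p = 0.125). No share passed after adjustment, and none could have. Even with all 6 tests at their smallest possible exact p, no adjusted p would fall below the threshold used. The adjusted values therefore cannot decide whether the mixture changed. Per kb of protein-coding exons, a scale chosen after the data were seen, Cxcl3 made up 30.9 to 51.7% in medium and 71.3 to 80.7% in LPS.

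Between genotypes the mean shares in LPS, taken over both batches, differed by at most 1.96 percentage points. Cxcl3 held 55.5 ± 6.23% in Scnn1b-Tg and 55.7 ± 3.95% in WT LPS, Cxcl2 29.3 ± 2.83 and 31.0 ± 2.51%, and Cxcl1 15.2 ± 3.42 and 13.2 ± 1.47% (SD, n = 3 each). Permutation over the libraries gave an exact p of 1, 0.6 and 0.4, where 3 against 3 libraries cannot go below 0.1. These values leave out the batch. Within batch 1, Cxcl3 held 62.5% in the Scnn1b-Tg library and a mean of 58.0% in the WT libraries, and within batch 2 a mean of 52.0% and 51.3%. In the same order Cxcl2 held 26.2 and 29.6% in batch 1 and 30.8 and 33.9% in batch 2, so it was lower in Scnn1b-Tg in both. Cxcl1 held 11.3 and 12.4% in batch 1 and 17.1 and 14.8% in batch 2, in opposite directions.

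**Figure D3:**
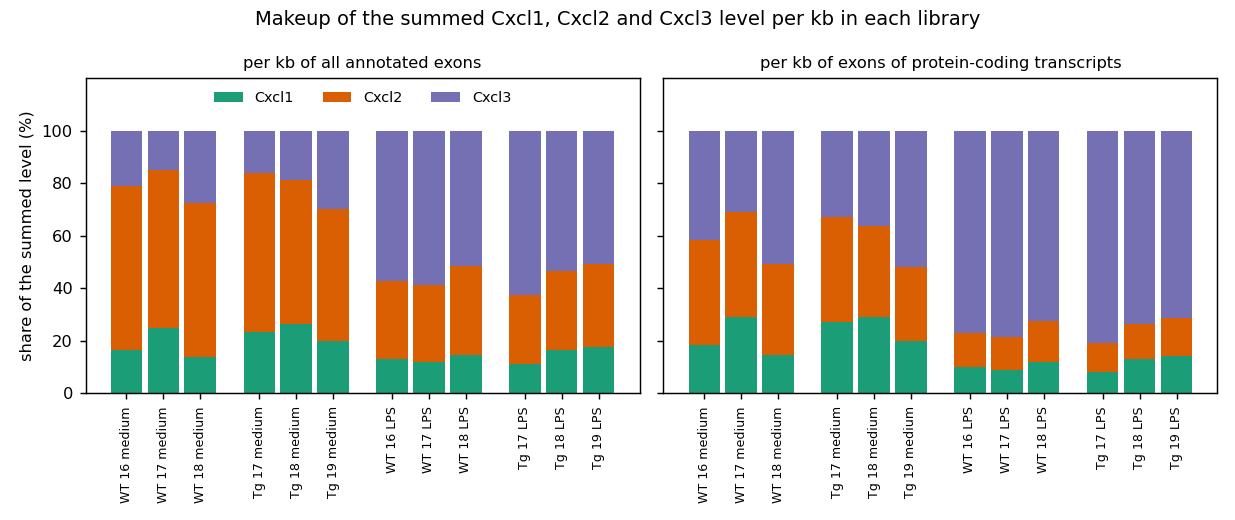
Share of Cxcl1, Cxcl2 and Cxcl3 in their summed level per kb, 1 bar per library. The y axis is the share in percent, on the left per kb of all annotated exons and on the right per kb of exons of protein-coding transcripts. The purple Cxcl3 block spans 15 to 29.7% in medium and 50.5 to 62.5% in LPS on the left.

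Scnn1b-Tg and WT AMs were next compared at rest. None of the 3 members passed the test over all genes with edgeR, though all had lower fitted values in Scnn1b-Tg AMs. Resting Scnn1b-Tg AMs held 6.00 ± 2.61 CPM of Cxcl2 and resting WT AMs 9.69 ± 3.08 CPM (SD, n = 3 each), a log2 difference of -1.0 (SE 0.27, 95% interval -1.60 to -0.40, edgeR adjusted p = 0.149). DESeq2 with the same design called it, with a log2 difference of -1.02 and an adjusted p of 0.00662. Over all alternatives the adjusted p for Cxcl2 ran from 0.00662 to 0.536, and DESeq2 called 501 genes in this comparison where edgeR called 46. Cxcl3 differed by -0.76 (95% interval -1.69 to 0.18, edgeR adjusted p = 0.484) and Cxcl1 by -0.46 (95% interval -1.18 to 0.26, edgeR adjusted p = 0.588). The size of these differences rested on single medium libraries. Leaving out 1 library at a time moved that of Cxcl2 between -1.28 (without WT 18) and -0.66 (without WT 16), that of Cxcl3 between -1.21 (without Scnn1b-Tg 19) and -0.27 (without Scnn1b-Tg 17), and that of Cxcl1 between -0.94 (without WT 18) and -0.19 (without Scnn1b-Tg 17), and none of these fits passed with edgeR.

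The genotypes overlapped at rest for all 3 members, whereas they did not overlap for 18.4% of all genes, and 0.335% of genes were called by edgeR. The Scnn1b-Tg pool 17 library was the lowest of all 6 medium libraries for each member. Within batch 1, with 1 Scnn1b-Tg against 2 WT libraries, the differences on the log2 CPM scale were -1.53 for Cxcl2, -1.64 for Cxcl3 and -1.28 for Cxcl1. Within batch 2, with 2 against 1, they were -0.49, -0.57 and 0.37, so Cxcl1 differed in the opposite direction there. The summed epithelial markers were also lower in Scnn1b-Tg medium (41.8 to 73.4 CPM, against 85.8 to 109 in WT), and their part in these differences was not tested.

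After LPS none of the 3 members passed between genotypes with edgeR. Scnn1b-Tg AMs held 899 ± 355 CPM of Cxcl1 and WT AMs 686 ± 188 CPM (SD, n = 3 each), a log2 difference of 0.08 once the batch was in the model (95% interval -0.48 to 0.63, edgeR adjusted p = 1). Cxcl2 was at 1876 ± 543 and 1766 ± 428 CPM, a log2 difference of -0.16 (95% interval -0.70 to 0.37, edgeR adjusted p = 1). Cxcl3 was at 5851 ± 756 and 5287 ± 663 CPM, a log2 difference of -0.09 (95% interval -0.89 to 0.71, edgeR adjusted p = 1). For Cxcl2 and Cxcl3 the fitted sign is opposite to that of the plain means, and it turned positive without the batch term (0.09 and 0.15), so no direction is given. The intervals still allow a Cxcl3 level between 0.54 and 1.63 times that of WT. All 3 members overlapped between the genotypes, while the groups did not overlap for 9.11% of genes, and 0.051% of genes were called by edgeR.

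The stimulated libraries fell apart by the batch of the labels for Cxcl1 and Cxcl2. Among LPS libraries, Cxcl1 was at 867 CPM or more in the 3 of batch 2 and at 699 CPM or less in the 3 of batch 1, whatever the genotype. For Cxcl2 the bounds were 2168 and 1775 CPM. The libraries of the batches did not overlap in this direction for 11.8% of all genes. Cxcl3 overlapped, with 5598 CPM as the lowest of batch 2 and 5737 CPM as the highest of batch 1. The fitted batch 2 against batch 1 term over all 12 libraries was 0.76 (SE 0.21, edgeR adjusted p = 0.0388) for Cxcl1, 0.67 (SE 0.19, edgeR adjusted p = 0.0409) for Cxcl2 and 0.66 (SE 0.29, edgeR adjusted p = 0.151) for Cxcl3, where 13.6% of all genes were called. Batch 2 held 2 of the 3 Scnn1b-Tg pools and 1 of the 3 WT pools.

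Whether the LPS response differed between genotypes was tested by the interaction. The fitted difference in log2 fold change, Scnn1b-Tg minus WT, was 0.84 for Cxcl2 (95% interval 0.07 to 1.60, unadjusted p = 0.0347 and adjusted p = 0.786 with edgeR), 0.67 for Cxcl3 (95% interval -0.51 to 1.85, edgeR adjusted p = 0.955) and 0.54 for Cxcl1 (95% interval -0.32 to 1.40, edgeR adjusted p = 0.941). No member passed, and 0% of all genes did with edgeR, where 817 genes had an unadjusted p under 0.05 and DESeq2 called 77 genes but none of the 3. Leaving out 1 library at a time moved the value for Cxcl2 between 0.44 (without the WT 16 medium library, unadjusted p = 0.0924 with edgeR) and 1.04 (without WT 18 medium), that for Cxcl3 between 0.28 (without Scnn1b-Tg 17 medium) and 1.15 (without Scnn1b-Tg 19 medium), and that for Cxcl1 between 0.25 (without WT 16 medium) and 0.89 (without WT 18 medium). The unadjusted p of Cxcl2 then ran from 0.0152 to 0.0988 with edgeR. These fits have no pool term. With the pool as a block, which keeps the pairing, Cxcl2 was at 0.81 (SE 0.19, unadjusted p = 0.0028 and adjusted p = 0.274 with edgeR). In that fit Cxcl3 was at 0.66 (edgeR adjusted p = 0.703) and Cxcl1 at 0.54 (edgeR adjusted p = 0.499), so no member passed there either. The interaction shares its libraries with the comparison at rest and is no separate support for it.

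**Figure D4:**
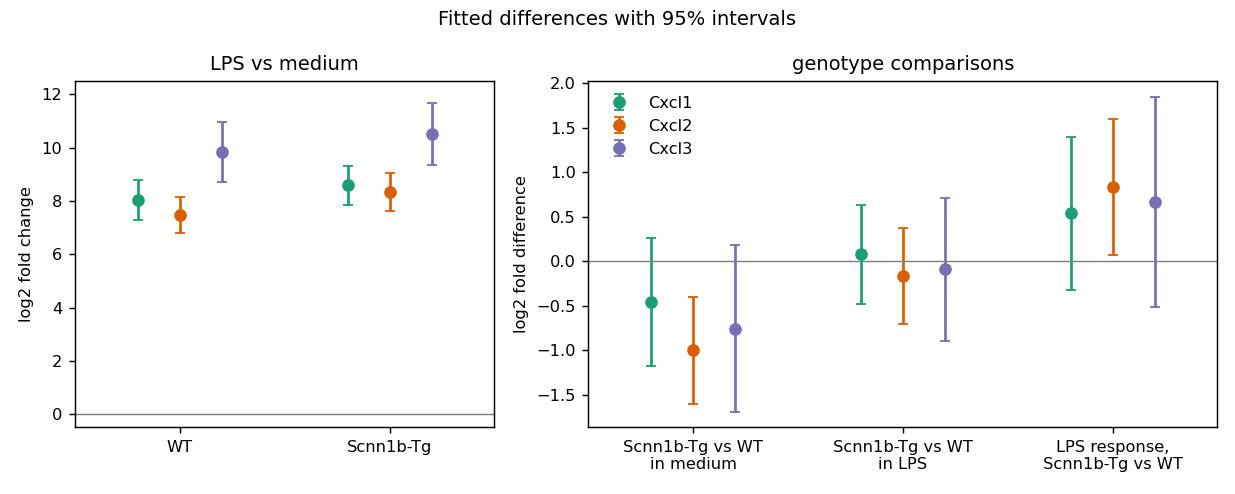
Fitted differences of Cxcl1, Cxcl2 and Cxcl3. Points are log2 fold changes (left, LPS against medium in each genotype) or log2 differences (right, Scnn1b-Tg against WT in medium, in LPS, and in the LPS response), bars are 95% intervals, and the panels have different scales. The left intervals lie between 6.80 and 11.68, and on the right only those of Cxcl2 in medium and in the response leave out 0.

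The neighbours of the trio in the cluster were examined next. Cxcl5, which encodes another ligand of CXCR2, had at most 5 counts in every medium library and with LPS was at 1.59 ± 0.272 CPM in the WT group and 1.87 ± 0.880 CPM in the Scnn1b-Tg group (SD, n = 3 each), at least 10.2-fold and 12.8-fold higher. Pf4, a platelet chemokine that is also made by macrophages, rose in WT AMs from 0.749 ± 0.423 to 3.58 ± 1.39 CPM (log2 fold change 2.21, edgeR adjusted p = 0.0049) and in Scnn1b-Tg AMs from 0.668 ± 0.354 to 4.41 ± 1.52 CPM (2.68, edgeR adjusted p = 0.00116). Cxcl15, a chemokine of lung epithelium, did not pass (edgeR adjusted p = 0.995 and 0.973), at 0.407 to 0.593 CPM in all groups. Ppbp was below the filter, with at most 10 counts in any library. Of the 3 neighbours tested, 2 were called higher in each genotype, and the list's median was 2.21 in WT and 2.68 in Scnn1b-Tg AMs. Over all genes tested, 15.5% were called higher and 16.2% lower in WT, and 19.3% and 18.7% in Scnn1b-Tg AMs. The medians over all genes were 0.00 and -0.02. The counts and medians of the lists below are to be read beside these values.

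The receptor genes Cxcr2 and Cxcr1 went the other way. Cxcr2, which encodes the receptor of the trio, was at 178 to 243 counts in WT medium and 5 to 15 in WT LPS. In Scnn1b-Tg medium it was at 292 to 563 counts and in Scnn1b-Tg LPS at 0 to 20. The groups did not overlap, and the log2 fold change was -4.41 (SE 0.47, edgeR adjusted p = 3.28e-05) for the WT pools and -4.98 (SE 0.42, edgeR adjusted p = 4.30e-06) for the Scnn1b-Tg pools. Cxcr1, the related receptor, fell in WT AMs from 89.7 ± 5.91 to 42.7 ± 1.46 CPM (log2 fold change -1.07, edgeR adjusted p = 0.000804) and in Scnn1b-Tg AMs from 136 ± 16.7 to 58.7 ± 16.6 CPM (-1.22, edgeR adjusted p = 0.000239). Called lower were 16.2% of all genes in WT and 18.7% in Scnn1b-Tg AMs. At rest both had higher values in Scnn1b-Tg AMs, with log2 differences of 0.98 for Cxcr2 (edgeR adjusted p = 0.185) and 0.59 for Cxcr1 (edgeR adjusted p = 0.186), which did not pass. The decoy receptor gene Ackr1 was not analysed here.

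Among 5 other CXC chemokines tested, 2 were called higher and 1 lower with LPS in each genotype. Cxcl10, an interferon-induced chemokine for T cells, rose in WT AMs from 0.780 ± 0.491 to 22.7 ± 4.84 CPM and in Scnn1b-Tg AMs from 0.711 ± 0.311 to 35.9 ± 7.33 CPM. Cxcl16, a membrane-bound chemokine and scavenger receptor, rose from 27.7 ± 2.73 to 281 ± 18.6 CPM and from 38.6 ± 3.60 to 354 ± 36.3 CPM in these genotypes. In the same order, Cxcl14 fell from 11.4 ± 3.08 to 3.89 ± 0.694 CPM and from 11.0 ± 3.04 to 3.73 ± 0.252 CPM. Exons of Cxcl10 and Cxcl16 overlap another gene, and counting ignored strand. Among the genes named from the lists below, the same limit holds for Il1a, Il1b, Icam1, Alox5ap, Irak1, Irak3, Irak4, Zfp36, Zfp36l1, Zfp36l2, Hnrnpd and Elavl1.

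Other neutrophil-directed mediators were split between cytokines and lipid enzymes. Of 8 tested, 5 were called higher and 3 lower in each genotype. Csf3, the granulocyte growth factor, had 0 counts in all 6 medium libraries and reached 65 to 96 counts in WT and 66 to 115 in Scnn1b-Tg LPS, at least 9.06-fold and 10.7-fold higher. Il1b rose by 5.73 and 6.46 log2 units, Tnf by 4.80 and 5.43, and Il1a by 3.16 and 3.38, in WT and Scnn1b-Tg AMs. Icam1, an adhesion molecule for neutrophils, rose by 1.67 and 2.38. The genes of leukotriene synthesis fell: the log2 fold changes were -2.77 and -2.62 for Alox5, -1.18 and -1.42 for Alox5ap, and -0.40 and -0.51 for Lta4h. The list's median was 2.42 in WT and 2.88 in Scnn1b-Tg AMs, also with Csf3 at its bound.

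Along the route from the LPS receptor to NF-kB, 7 of 14 genes were called higher and 2 lower in WT, and 6 and 2 in Scnn1b-Tg AMs. The largest rise was that of Cd14, the co-receptor that hands LPS to TLR4, by 3.34 and 4.10 log2 units. Cd14 was also the single gene of all these lists that edgeR called between genotypes at rest, with 0 in LPS, and it was lower in Scnn1b-Tg medium (34.8 ± 2.62 against 57.4 ± 9.23 CPM, log2 difference -0.79, SE 0.09, edgeR adjusted p = 0.00975). The NF-kB subunit genes Nfkb1 (1.07 and 1.03), Rela (0.89 and 1.09) and Rel (0.87 and 0.57) rose, as did the adaptor gene Ticam1 (0.71 in both). Tlr4, the receptor, fell by 1.63 in WT AMs (edgeR adjusted p = 0.0238) and was at -0.32 in Scnn1b-Tg AMs (edgeR adjusted p = 0.63), but its WT LPS libraries ran from 189 to 1742 counts and edgeR gave the difference an unadjusted p of 0.0722. Irak1, a kinase of the route, fell, with log2 fold changes of -0.32 and -0.25. Irak4, another kinase, was at -0.35 in Scnn1b-Tg AMs (edgeR adjusted p = 0.0143) and at -0.19 in WT AMs (edgeR adjusted p = 0.156). The list's median was 0.32 and 0.37.

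All 7 inhibitors and co-factors of the route were called higher in both genotypes, and their median was 1.97 in WT and 2.35 in Scnn1b-Tg AMs. Nfkbiz, whose product IkB-zeta works with NF-kB at a subset of secondary response genes, rose most, by 4.69 and 4.70 log2 units. Tnfaip3 (2.36 and 2.67), Irak3 (2.08 and 2.35) and Nfkbie (1.97 and 2.71), all brakes on the route, rose as well.

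Of 9 tested regulators of mRNA decay, 1 was called higher and 2 lower in WT, and 3 and 3 in Scnn1b-Tg AMs. Of all genes, 15.5% were called higher and 16.2% lower in WT, and 19.3% and 18.7% in Scnn1b-Tg AMs. The WT counts are near these shares, so they are no trait of the list. Zc3h12a, which encodes the endonuclease Regnase-1, rose by 3.27 and 3.13 log2 units. The AU-rich element binding genes Zfp36l1 and Zfp36l2 fell, with log2 fold changes of -2.07 and -2.24 for the first and -1.16 and -1.40 for the second. Zfp36, which encodes tristetraprolin, was at 0.03 (edgeR adjusted p = 0.836) in WT and fell by 0.36 (edgeR adjusted p = 0.0181) in Scnn1b-Tg AMs. Hnrnpd rose by 0.82 and Elavl1 by 0.27 in Scnn1b-Tg AMs, with values of 0.33 and 0.21 in WT that did not pass. The list's median was 0.21 in WT and 0.08 in Scnn1b-Tg AMs.

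**Figure D5:**
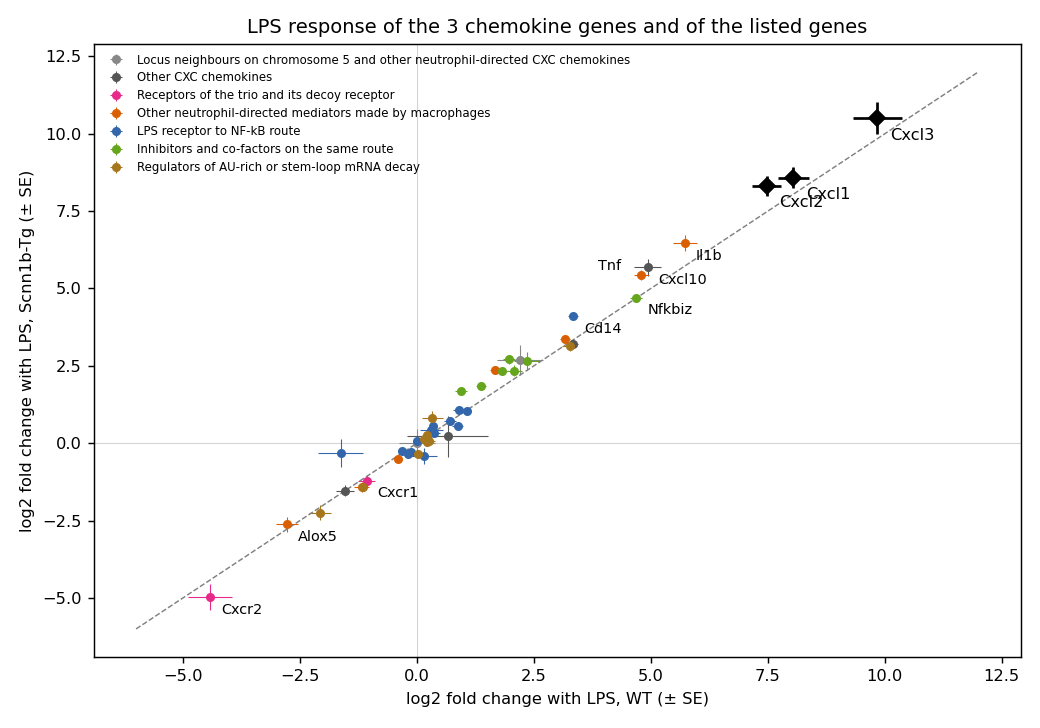
LPS response in WT (x axis) and Scnn1b-Tg AMs (y axis), as log2 fold changes with bars of 1 SE. Black diamonds are Cxcl1, Cxcl2 and Cxcl3, coloured points are 45 of the 48 tested genes of the fixed lists, and the dashed line marks equal change. The 3 with a group at the floor (Cxcl5, Cxcl17 and Csf3) are not drawn. The trio lies beyond every drawn gene of the lists, from 7.48 to 9.84 in WT, and Cxcr2 lies at the other end.

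Likeness was measured over the 9101 genes whose mean reached 5 CPM. The gene whose level followed each member most closely over the 12 libraries was Tnf, with Pearson's r of log2 CPM of 0.9971 for Cxcl1, 0.9987 for Cxcl2 and 0.9967 for Cxcl3. Slpi, a secreted protease inhibitor, and Fpr1, a receptor for bacterial formyl peptides, were also among the 5 closest to each of the 3. Slpi went from 224 to 3335 CPM and Fpr1 from 53 to 801 CPM (WT means). Ccl3 and Il1b completed the list for Cxcl1, Phlda1 and Dusp1 for Cxcl2, and Slc2a1 and Pvr for Cxcl3, with r of 0.9949 to 0.9971. Such values follow mainly from the gap between medium and LPS, which all 12 libraries share, and 393 to 423 genes reached r of 0.95 with a member. Within the 6 LPS libraries, Pearson's r was 0.96 between Cxcl1 and Cxcl2, 0.90 between Cxcl1 and Cxcl3 and 0.84 between Cxcl2 and Cxcl3. Spearman's rho was 0.94, 0.83 and 0.66 for the same pairs. Within the 6 medium libraries Pearson's r was 0.83, 0.75 and 0.91 but Spearman's rho was 0.54, 0.20 and 0.71, with the Scnn1b-Tg 17 library lowest for each member. These are descriptions over libraries that also share the batch.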

How the data were processed

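Gene expression was measured by RNA sequencing in 12 AM libraries (4 groups of 3). The authors prepared libraries with the SMART-Seq v4 kit, sequenced read pairs of 125 bp, aligned them to mm10 with HISAT2 (unstranded) and quantified GENCODE M20 genes with StringTie. The deposited values are estimated counts, whole numbers made from coverage by a StringTie helper program. The authors tested them with DESeq2, and those results were not used here. The tools are named in the submitters' processing notes and the study's methods.

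The members and gene lists were chosen with earlier results of these data known. The low-count filter was filterByExpr with a minimum of 10 counts and a total of 15, which left 13729 genes. The counts, scaled by TMM, were tested with edgeR 4.0.16 in R 4.3.3 by the quasi-likelihood method, with a term per group and one for the batch, two-sided, with Benjamini-Hochberg adjustment over all genes tested and a threshold of 0.05. CPM are TMM-scaled, and log2 CPM used a prior count of 2. Errors of fitted values are SE. Intervals are 95%. DESeq2 1.42.0 and limma 3.58.1 served as alternatives. The fit was tested on simulated data. Floors cover counting error only, since amplified reads carry no molecular identifiers. Gene positions came from GENCODE M21 (mm10), in which 20132 of 20551 IDs were found, and promoters from RefSeq (GRCm38.p6).

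The labels give each pool 1 medium and 1 LPS library, so these libraries are paired. Deviations from the group means of the 2 libraries of a pool correlated at r = 0.14 to 0.34 over genes. The labels do not say that pools were cultured apart, so p-values measure the spread between these pools. Named were the members, the 5 genes most like each of them with a mean of at least 5 CPM, and from each list the genes called between genotypes and up to 4 of the largest called rises and falls per genotype with LPS. Outside this rule, Icam1, Cxcl15, Ppbp and genes of the marker lists were named after their values were seen.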

Additional observations from a re-analysis of the deposited data

How the results depend on the processing

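The rise of Cxcl1, Cxcl2 and Cxcl3 with LPS kept its direction and its call under all 126 alternatives, and of 312 fitted values 300 kept direction and side of the threshold. With the replicate number or the pool as a block, no call changed. The pools pair the libraries of the LPS comparisons and of the interaction, and with the replicate block their log2 values were 8.06, 7.52 and 9.84 in WT and 8.60, 8.33 and 10.51 in Scnn1b-Tg AMs for Cxcl1, Cxcl2 and Cxcl3. Between genotypes the numbers 17 and 18 are shared without a stated pairing, and deviations correlated at r = 0.11 to 0.26, on only 2 numbers.

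Cxcl2 at rest passed with DESeq2 alone (-1.02). In LPS, Cxcl2 turned to 0.09 without the batch term and 0.01 with the replicate block, and Cxcl3 to 0.15 without the batch term, 0.05 with only the groups compared, 0.05 with the replicate block and 0.06 with the pool as a random effect. The cause was not tested. The share of Cxcl1 differed by -12.1 percentage points between LPS and medium on exons of protein-coding transcripts, a setting added after the data were seen, where the exact p became 0.031. Leaving out 1 library moved the genotype difference in LPS from -0.07 to 0.34 for Cxcl1 and from -0.36 to 0.09 for Cxcl3. The study's principal component analysis had 1 outlier among the WT LPS libraries, which its text does not name. Leaving out 1 pool leaves 5, which cannot give an exact p below 0.0625, and the share of Cxcl2 then changed by -29.5 to -26.3 points, that of Cxcl3 by 31.9 to 37.0, and the genotype difference of Cxcl3 ran from -3.71 to 2.28. The longest annotated transcript and counts divided by 5 changed no call. With 3 libraries a group, the genotype intervals of Cxcl3 span more than 1.5 log2 units.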
